A study of Homo sapiens with 22 samples.

Results

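The placental lactogen genes CSH1 and CSH2 and the placental growth hormone gene GH2 were followed through the reprogramming of human fibroblasts to pluripotency. These 3 genes, of 33694 in the count files, were taken by symbol. They had been chosen by their RNA levels by day in the same data, with a peak on D11, so those levels are given here as a description, without a test. The cells were BJ fibroblasts, an established line from human foreskin, cultured in microfluidic chips and transfected daily with messenger RNAs for POU5F1, SOX2, KLF4, MYC, LIN28 and NANOG. D0 cells were taken before the first transfection, and the cells of D3, D5 and D7 during the transfections. Those of D9, D11, D13 and D15 were taken after them, in pluripotency medium. The samples thus differed in day and in stage of treatment together, which cannot be told apart, and all came from 1 cell line. Each day had 2 pools of cells, A and B (n = 2), each collected from independent chips. Of the 16 pools, 6 had been captured as 2 aliquots, which gave 22 libraries, and 41975 of 44197 barcodes passed the cell filter (1000 genes or more, mitochondrial UMIs not above 10%). A UMI (unique molecular identifier) marks 1 captured RNA molecule. The pools held between 571 and 6142 cells, with a median of 23717 to 80168 UMIs per cell.

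Placental lactogen is a hormone that the syncytiotrophoblast, the outer multinucleated layer of the placenta, secretes into the mother's blood, where it shifts maternal metabolism towards supplying the fetus. Placental growth hormone is the placental variant of pituitary growth hormone. Both signal through receptors of the cytokine family, the prolactin receptor PRLR and the growth hormone receptor GHR, which act through the kinase JAK2 and the STAT transcription factors. The genes lie in a cluster of duplicated genes together with GH1, the growth hormone gene of the pituitary, and CSHL1, a lactogen-like gene.

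On GRCh38 (gencode annotation), the cluster runs from 63872012 to 63918839 on chromosome 17, with all of its genes on the minus strand. CSH2 (ENSG00000213218) lies from 63872012 to 63873766, GH2 (ENSG00000136487) from 63880215 to 63881944, and CSH1 (ENSG00000136488) from 63894909 to 63896661. CSHL1 (63909597 to 63911341) and GH1 (63917200 to 63918839) follow. The duplicated genes are so alike that reads can fit more than 1 of them. Of the 98-base windows in the last 400 bases of the annotated CSH1 transcripts, 42.0% also occurred letter for letter in CSH2, and 33.8% of those of CSH2 occurred in CSH1. For GH2, 11.2% of the windows were shared with GH1 and none with CSH1 or CSH2. Cell Ranger counts a read for a gene only where it maps to that gene alone, so the levels of CSH1 and CSH2 taken singly are uncertain. The sum CSH1 + CSH2 + GH2, called the family sum below, still lacks the reads that fit 2 of its genes.

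The family was close to absent until D5, appeared at D7, peaked at D11 and had fallen at D15. Levels are given as CPM, a gene's UMIs scaled to 1000000 UMIs of its pool. Among the 20018 cells of D0, D3 and D5, 4 cells carried 1 family UMI each. In the transfected cells of D7, the family sum was 3.18 CPM in pool A and 1.48 in pool B. It was 55.6 (A) and 50.1 CPM (B) on D9 and 218 and 219 on D11. On D13 it was 117 in A and 41.8 in B, and on D15 it was 11.4 and 21.1. The pools of D11 lay above every pool of every other day. The order of the means was D11 (219 CPM ± 0.893, SD, n = 2), D13 (79.2 ± 52.9), D9 (52.8 ± 3.85), D15 (16.2 ± 6.90) and D7 (2.33 ± 1.20). D13 and D9 overlapped and did not differ beyond the spread between pools, whereas the other neighbours among these days did not overlap. D0, D3 and D5 overlapped with each other. In such sums, fewer carrying cells and less RNA per cell cannot be told apart.

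**Figure D1:**
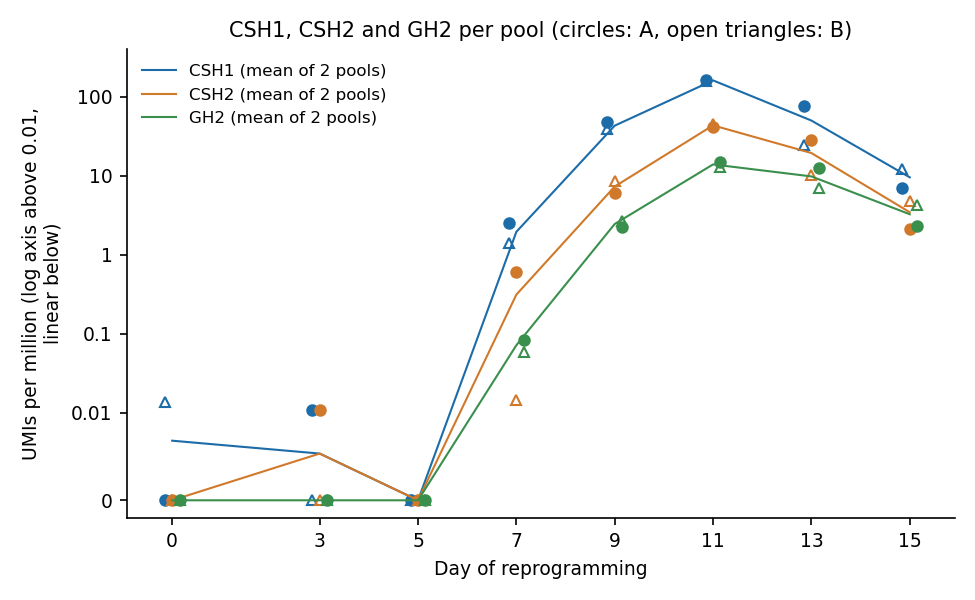
CPM of CSH1, CSH2 and GH2 in each pool (vertical axis, logarithmic above 0.01 and linear below) by day of reprogramming (horizontal axis), with lines through the mean of 2 pools. All 3 genes were at or near 0 until D5 and highest on D11, where CSH1 stood at 161 CPM, CSH2 at 43.5 and GH2 at 13.9 on average.

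CSH1, the main placental lactogen gene, was the most abundant member in both pools of every day from D7 on. It was at 2.49 (A) and 1.41 CPM (B) at D7, 47.2 and 38.9 at D9, 162 and 161 at D11, 75.4 and 24.5 at D13, and 6.96 and 12.1 at D15. Its mean on D11 was 3.74-fold that of D9 and 16.9-fold that of D15. CSH2, the second lactogen gene, was at 0.609 and 0.0146 CPM at D7, 6.07 and 8.53 at D9, 41.2 and 45.7 at D11, 28.6 and 10.2 at D13, and 2.11 and 4.78 at D15. The pools of D13 lay above those of D9 for this gene, and the D11 mean was 5.95-fold that of D9. GH2 was at 0.0841 and 0.0585 CPM at D7, 2.25 and 2.65 at D9, 15.0 and 12.9 at D11, 12.6 and 7.01 at D13, and 2.29 and 4.21 at D15. Its fall was shallower: the mean on D11 was 1.42-fold that of D13 and 4.28-fold that of D15, and D15 and D9 overlapped. No GH2 UMI was found on D0, D3 or D5, which allows up to 0.00956, 0.0123 and 0.0249 CPM on these days (3 counts over both pools).

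The share of GH2 in the family RNA rose with time, and that of CSH1 fell. GH2 made up 4.05% (A) and 5.28% (B) of the family UMIs at D9, 6.87% and 5.86% at D11, 10.8% and 16.8% at D13, and 20.2% and 19.9% at D15. The pools of the 4 days did not overlap. CSH1 went the other way, from 85.0% and 77.7% at D9 to 74.2% and 73.3% at D11, 64.7% and 58.7% at D13, and 61.3% and 57.4% at D15. For CSH1, the pools of D13 and D15 overlapped. CSH2 made up 10.9% and 17.0% at D9, 18.9% and 20.8% at D11, 24.5% and 24.5% at D13, and 18.6% and 22.6% at D15. The family UMIs behind these shares numbered from 377 (D15, pool A) to 39257 (D11, pool A). The remaining genes of the cluster were low and were also highest on D11. CSHL1 was at 1.00 CPM at D9, 5.51 at D11, 2.29 at D13 and 0.609 at D15 (means of 2 pools), and the pituitary gene GH1 was at 0.334, 1.57, 0.881 and 0.482. Per 100 UMIs of CSH1, there were 3.54 (A) and 3.29 (B) of CSHL1 and 0.851 and 1.10 of GH1 on D11. How far reads of CSH1 or GH2 were placed on these copies was not tested.

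The libraries of 1 pool differed more than the pools of D11 did. In pool B of D11, the aliquots stood at 128 and 234 CPM, so the SD of 0.893 CPM between the pools of that day understates the spread of the measurement. On D9, the aliquots of pool A were at 133 and 46.1 CPM and those of pool B at 85.6 and 21.4, so that 1 aliquot of D9 lay above 1 of D11. In the aliquot at 133 CPM, a single cell held 1371 of the 6424 family UMIs of pool A of D9, and without it the mean of that day was 46.9 CPM. On D7, 1 cell held 234 of the 454 family UMIs of pool A (51.5%) and another held 183 of 203 in pool B (90.1%). The level of pool B thus rested mostly on 1 cell. In pool A the rest was spread over other cells, and 90.8% of its cells had no family UMI. No barcode with 50 or more family UMIs was found with that many in another library. Any 2 libraries shared between 0 and 41 barcodes, with a median of 3.

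The family RNA was concentrated in few cells. On D11, the 5% of cells with most family UMIs held 63.6% of them in pool A and 80.0% in pool B, and 80 and 55 cells made up 50% of the total. On D9 the richest 5% held 91.0% and 80.8%, and on D13 90.9% and 69.5%. Cells with 50 or more family UMIs numbered 2 at D7, 52 at D9, 326 at D11, 52 at D13 and 6 at D15. These were 5.30% and 5.21% of the cells of D11, 1.61% and 1.45% of those of D9, and 2.32% and 0.492% of those of D13. On D15 they were 0.350% and 0.190%. The limit of 50 was set on unthinned counts, so these shares also depend on the UMIs per cell, which differed between pools.

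The share of cells with a family UMI was compared after thinning each cell to 5000 UMIs, which every cell that was kept reached. At least 1 family UMI was found in 6.66% (A) and 9.44% (B) of cells at D9, 33.9% and 16.1% at D11, 9.30% and 9.46% at D13, and 2.63% and 4.93% at D15. It was found in 0 of 10776 fibroblasts of D0, which allows a share of up to 0.0278%. Without thinning, the mean share was 34.0% at D9, 69.6% at D11, 36.2% at D13 and 17.7% at D15. Pool A of D11 stood apart here: 5.13% of its cells had no family UMI at full depth, against 55.6% of those of pool B. With at least 3 UMIs of 5000, the pools of D11 were close, at 6.63% (95% exact binomial interval 5.76 to 7.60) and 7.13% (6.27 to 8.06). The share with at least 3 UMIs was 1.72% and 1.63% at D9, 2.98% and 1.16% at D13, and 0.350% and 0.712% at D15. At other limits the pools of D11 differed. With at least 2 UMIs, pool A was higher (11.5% against 9.05%). With at least 10, pool B was higher, at 2.68% (2.16 to 3.29) against 1.61% (1.18 to 2.13). Intervals cover counting error only. Among the members, CSH1 was found in 20.8% of D11 cells, CSH2 in 7.34% and GH2 in 4.27% (at least 1 of 5000 UMIs, means of 2 pools).

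**Figure D2:**
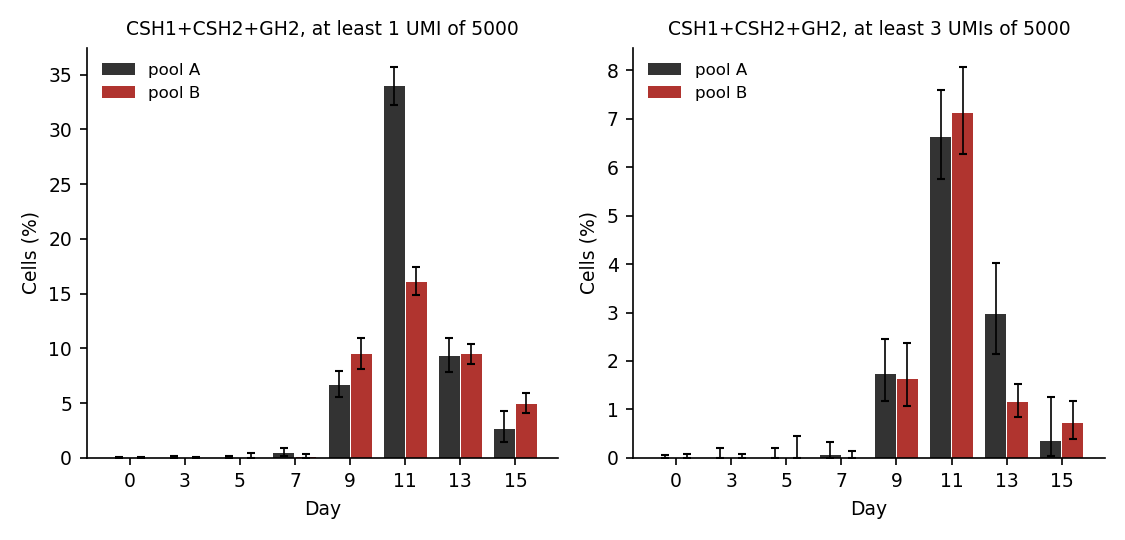
Percent of cells of each pool (vertical axes) with at least 1 (left) or at least 3 (right) CSH1, CSH2 or GH2 UMIs among 5000 thinned UMIs, by day, with 95% exact binomial intervals. The pools of D11 differed at 1 UMI (33.9% and 16.1%) and lay close together at 3 UMIs (6.63% and 7.13%).

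Single cells differed widely in which member they carried. Among the 326 cells of D11 with 50 or more family UMIs, CSH1 made up between 1.42% and 100% of them, with a median of 79.7% and quartiles of 65.3% and 89.9%. The SD of this share was 19.5 percentage points, against 4.22 if each cell had drawn its UMIs from 1 common mix. CSH2 exceeded CSH1 in 33 of these cells, and 31 had at least 95% CSH1. One cell of D11 (pool B) carried 2 UMIs of CSH1, 126 of CSH2 and 13 of GH2, whereas the cell with most family UMIs, in pool A of D9, carried 1180 of CSH1, 158 of CSH2 and 33 of GH2. GH2 was the highest of the members in 2 of the 438 such cells of all days, both in pool A of D13. They held 66 and 48 UMIs of GH2, with 12 and 2 of CSH1 and 12 and 32 of CSH2. The median share of GH2 in these cells was 3.06% at D9, 3.75% at D11, 7.31% at D13 and 3.81% in the 6 cells of D15, so the rise of GH2 in the pooled UMIs of D15 was not seen in these cells. These cells were described because of their counts, which were seen first.

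**Figure D3:**
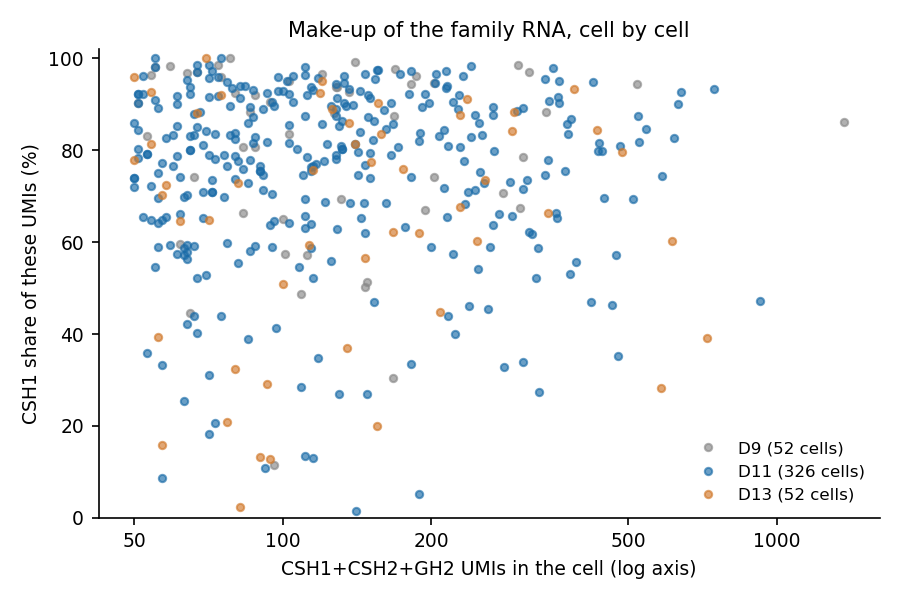
CSH1 share of the family UMIs in percent (vertical axis) against the number of CSH1, CSH2 and GH2 UMIs (horizontal axis, logarithmic) in single cells with 50 or more of them, coloured by day. CSH1 made up most of the UMIs in most cells (quartiles of 65.3% and 89.9% on D11), with a tail of cells down to 1.42%.

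The cells that carried the family RNA were then compared with classes of cells set without it. POU5F1 cells had at least 1 UMI of POU5F1, a core pluripotency factor, and fewer than 5 of the fibrillar collagens COL1A1, COL1A2 and COL3A1 at 5000 UMIs, and collagen cells had at least 20 of these collagen UMIs and none of POU5F1. On D11, the family sum was 301 CPM in the 1516 POU5F1 cells of pool A and 60.6 in its 178 collagen cells. In pool B it was 325 CPM in 1804 POU5F1 cells and 8.00 in 532 collagen cells. The values were 162 and 2.64 CPM in pool A of D13, 47.3 and 15.6 in pool B of D13, and 23.2 and 8.12 in pool B of D15. Pool A of D15 had 13 collagen cells, fewer than the 20 required, and was left out. The family sum was higher in POU5F1 cells in 5 of 5 pools, by 2.86- to 61.4-fold, with a mean difference of 3.18 ± 1.99 in log2(CPM + 1) (SD, n = 5). The two-sided exact paired permutation test gave p = 0.0625, the smallest value that 5 pools allow. The members had been chosen by their levels by day in these same pools, so this test is not independent of that choice. D9 was not part of the test. It came soon after the last transfection, so its POU5F1 UMIs may include transfected RNA, which was not tested. The sums of D9 were 116 and 4.12 CPM in pool A and 85.5 and 2.08 in pool B.

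**Figure D4:**
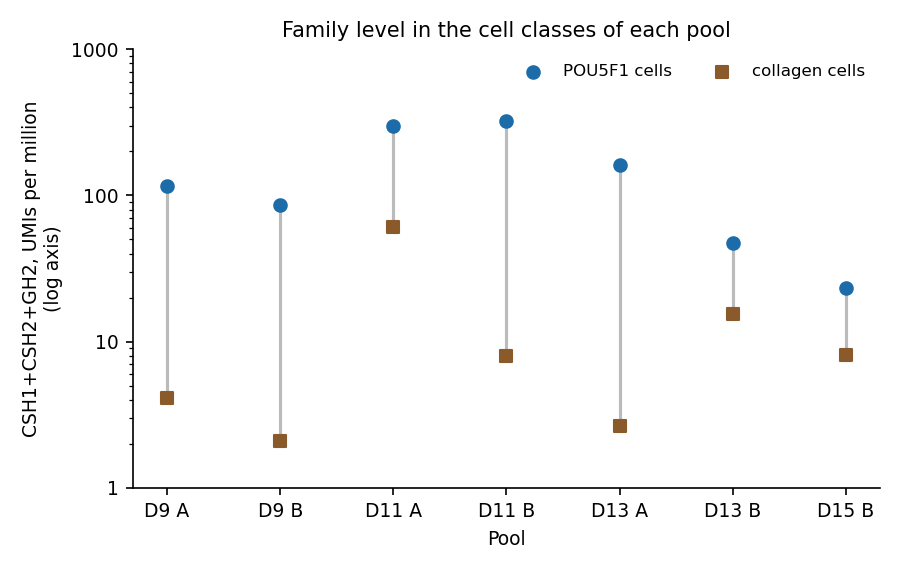
Family sum in CPM (vertical axis, logarithmic) in the POU5F1 cells (circles) and the collagen cells (squares) of each pool. The circle lay above the square in all 7 pools shown, with the narrowest gaps in pool B of D13 and pool B of D15. The pools of D9 were not part of the test, and their POU5F1 UMIs may include transfected RNA.

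Collagen cells also showed what a cell class of fibroblast type carried in the same pools. At least 1 of 5000 UMIs was found in 27.0% of the collagen cells of pool A of D11 (interval 20.6 to 34.1), against 40.3% of its POU5F1 cells. In pool B of D11 the shares were 2.82% and 24.6%. Their median depths were 44226 and 67000 UMIs in pool A and 33266 and 52428 in pool B. In pool B of D13, 8.40% of collagen cells (4.27 to 14.5) and 10.4% of POU5F1 cells (9.34 to 11.6) had a family UMI, and the intervals overlapped, so the shares were not told apart at this depth. At 3 UMIs the classes of D11 lay further apart. It was reached by 168 of 1516 POU5F1 cells (11.1%) and 1 of 178 collagen cells (0.562%) of pool A, and by 226 of 1804 (12.5%) and 0 of 532 of pool B, which allows up to 0.564%. In pool A of D13, 40 of 865 POU5F1 cells (4.62%) and 0 of 235 collagen cells reached it, which allows up to 1.28%. In pool B of D13, 42 of 2947 POU5F1 cells (1.43%) and 0 of 131 collagen cells did, which allows up to 2.29%, so no difference was detectable there. Free RNA in the droplets was not measured, and its part in the single UMIs was not tested.

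Carrier cells were set at 3 or more family UMIs of 5000. Few or none of the collagen cells above reached this limit. The POU5F1, pluripotency and fibroblast differences of carriers below thus overlap with that split and are not separate support. They numbered 1 at D7, 57 at D9, 428 at D11, 88 at D13 and 17 at D15. On D11 there were 194 carriers in pool A and 234 in pool B. A further 798 and 294 cells had 1 or 2 such UMIs and entered neither class. POU5F1 was found in 97.9% and 99.6% of the carriers of D11, against 80.4% and 59.8% of the 1933 and 2754 cells with no family UMI. Of the carriers of D9, D13 and D15, 96.7% to 100% had it, against 40.0% (A) and 53.0% (B) of the cells with no family UMI on D9, 66.0% and 87.9% on D13, and 90.1% and 91.8% on D15. The shares of D9 may include cells with transfected POU5F1 RNA. Carriers were deeper, with a median of 80991 and 56711 UMIs on D11 against 54060 and 43107, whereas the mitochondrial share was close (4.10% against 4.10%, and 3.42% against 3.46%). Doublets were not removed, and their part in the results was not tested.

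Carriers of D11 were compared with the other cells of their pools over 17561 genes, without the cluster's own genes, on UMI sums per class (edgeR quasi-likelihood test, pool as block). With 2 pools the fit leaves little information per gene and leans on the spread shared by all genes. It called 3546 genes (adjusted p below 0.01, log2 fold change above 0.25 or below −0.25), of which 1546 (8.80% of those tested) were higher and 2000 (11.4%) lower in carriers. The median over all genes was −0.01. Without the pool block, 0 genes were called by edgeR, with 4082 at an unadjusted p below 0.05. With 6 pools of D9, D11 and D13 that had at least 25 carriers, 3774 were called, 1422 higher (8.24% of 17259 tested) and 2352 lower (13.6%), and 2086 without pool B of D11. DESeq2, on the pools of D11, called 1454 higher and 1241 lower. With both classes limited to cells with at least 1 POU5F1 UMI of 5000, 1077 of 16926 genes (6.36%) were higher and 1216 (7.18%) lower. No collagen limit was set there. In all comparisons of carriers with other cells, the name POU5F1 cells stands for this wider set. The fit with 6 pools and the fit limited to POU5F1 cells were added after seeing the data. When each cell was thinned to 5000 UMIs before summing, 1402 of 12538 genes were called.

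Among the genes with the largest rise at 20 CPM or more, ACTA1, the actin of skeletal muscle, stood at 2205 (A) and 2431 CPM (B) in carriers and at 432 and 329 in other cells (log2 fold change 2.75, SE 0.14, adjusted p = 3.62e-05). It was higher in carriers in 6 of 6 pools with at least 25 of them. NPPB, which codes for the natriuretic peptide BNP, was at 107 and 269 CPM against 24.7 and 30.2 (2.78, SE 0.22, adjusted p = 9.66e-05), and was higher in 5 of 6 pools. NLRP7 (20.6 and 38.8 CPM against 4.70 and 6.45) and NLRP2 (21.5 and 33.5 against 7.58 and 9.37) are maternal-effect genes of the early embryo and rose by 2.51 and 1.81 on the log2 scale. The others were NRK (1.93), the cytokine IL32 (1.92), FAM35A (1.91) and the metallothionein MT1M (1.78). In POU5F1 cells alone, these 8 genes were called with log2 fold changes between 1.46 and 2.82.

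Among the 8 genes with the largest fall, DCN, a matrix proteoglycan, was at 6.82 and 2.08 CPM in carriers and at 35.2 and 59.7 in other cells, and fell by 3.20 on the log2 scale (SE 0.37, adjusted p = 0.000427). LUM, a related proteoglycan (−3.09), the collagenase MMP1 (−3.01), the matrix protein POSTN (−2.92), EMP1 (−2.87), the homeobox gene MEIS2 (−2.77), the collagen COL8A1 (−2.75) and the WNT inhibitor DKK1 (−2.74) followed. All 8 were lower in 6 of 6 pools. They were also called among cells with POU5F1, with no collagen limit, by −2.42 to −1.99. Of 14 fibroblast markers tested, 13 fell (median −2.53), 13 in POU5F1 cells alone and 12 with 6 pools. THY1 did not pass (−0.31, adjusted p = 0.0126).

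Receptors and signal transducers of the hormones did not move as 1 group. Of 15 genes tested, 2 rose, 5 fell and 8 did not pass, with a median of −0.34. PRLR was at 0.311 CPM in carriers and 1.07 in other cells (−1.57, SE 0.51, adjusted p = 0.0439) and GHR at 0.155 and 0.200, so both receptors were low in either class. JAK2 (0.662 and 1.02 CPM), STAT5A (1.12 and 1.30) and STAT5B (4.37 and 4.63) did not pass. INSR, the insulin receptor, rose from 5.03 (A) and 6.54 CPM (B) to 12.0 and 18.1 (1.50, SE 0.12, adjusted p = 9.29e-05), in 6 of 6 pools. SOCS1, which inhibits JAK kinases, rose from 106 and 119 CPM to 154 and 175 (0.68). The related inhibitors SOCS2 (−1.40) and SOCS3 (−0.95) and the growth factors IGF1 (−2.30) and IGF2 (−2.02) fell.

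Genes of the syncytiotrophoblast, the placental layer that makes the hormones, moved both ways. Of 34 genes, 16 had enough UMIs to be tested, 4 rose and 5 fell, with a median of −0.04. CGA, the common subunit of chorionic gonadotropin, was at 0.234 CPM in carriers and 0.180 in other cells, and ERVW-1, the fusogen syncytin-1, at 0.104 and 0.169. GDF15, a stress-induced growth factor (54.2 CPM against 37.8), the protease inhibitor TFPI2 (27.2 against 22.5), INHA (1.90 against 0.570) and PSG9 (1.39 against 0.268) rose. The rise of PSG9 was uneven, at 0.423 (A) and 2.36 CPM (B) in carriers against 0.203 and 0.333. It was higher in carriers in 4 of 6 pools. With 6 pools 2 genes rose, since GDF15 (0.23, adjusted p = 0.412 from edgeR) and TFPI2 (0.25, adjusted p = 0.0601) did not pass, and TFPI2 did not pass in POU5F1 cells either (0.19, adjusted p = 0.117). PAPPA, SDC1, KISS1, ADAM12 and PSG5 fell, by 1.00 to 2.38 on the log2 scale. KISS1 did not pass in POU5F1 cells alone (−0.32, adjusted p = 0.231 from edgeR). Among 14 trophoblast regulators and cytotrophoblast genes tested, of 22, the transcription factors GATA3 (1.76), TFAP2C (1.03), TEAD4 (0.52) and ASCL2 (2.00) and the gene XAGE2 (1.77) rose, and TFAP2A (−2.55), KRT7 (−0.82) and EGFR (−2.16) fell. In POU5F1 cells alone, KRT7 did not pass (−0.06, adjusted p = 0.918 from edgeR). GATA3 was at 5.07 and 5.76 CPM in carriers and 1.58 and 1.94 in other cells. Of the genes of the pituitary, where growth hormone is made, 6 of 10 were tested. LHX4 rose from 0.302 to 1.29 CPM (2.22), PITX1 fell (−1.60), and POU1F1, the activator of pituitary growth hormone, was too low to test. Of 4 amnion genes tested, BMP4 rose (0.54), MEIS1 fell (−2.11) and 2 did not pass, of which ISL1 was called lower with 6 pools (−1.25).

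Pluripotency genes were higher in carriers. Of 15 tested, 12 rose and 0 fell (median 0.55), 8 rose with 6 pools, and 6 within POU5F1 cells. DPPA2 had the largest rise (71.3 and 78.5 CPM against 29.0 and 31.5, log2 fold change 1.44), and POU5F1 itself was at 1191 and 1403 CPM against 769 and 851 (0.81). Of 11 genes of naive pluripotency, the state of the preimplantation embryo, 9 rose and 1 fell (median 1.56), 8 rose within POU5F1 cells and 7 with 6 pools. DNMT3L, a cofactor of DNA methyltransferases, was at 7.97 and 8.33 CPM in carriers and 1.17 and 1.53 in other cells (2.74, SE 0.17, adjusted p = 5.24e-05). KHDC3L, a maternal-effect gene, was at 65.8 and 72.4 against 21.6 and 23.9 (1.74). DPPA3 (1.56), DPPA5 (1.08), TFCP2L1 (1.68), SUSD2 (0.93) and KLF4 (0.83) rose, and TBX3 fell (−1.77). SUSD2 (0.47) and KLF4 (0.79) did not pass with 6 pools, nor did KLF4 in POU5F1 cells (0.66). The placental alkaline phosphatases ALPPL2 (2.73) and ALPP (3.64) also rose. These are near-identical genes whose single levels are uncertain. Of 6 genes of the Nodal pathway, NODAL, LEFTY1, LEFTY2, FOXH1 and GDF3 rose by 0.67 to 1.20, and LEFTY2 did not pass with 6 pools (0.54).

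Of 11 mesendoderm genes tested, 1 rose, 8 fell and 2 did not pass. T (brachyury), a marker of the primitive streak, was at 16.4 CPM in carriers and 6.61 in other cells (1.41, SE 0.20, adjusted p = 0.00119), and rose in 6 of 6 pools. In the same list, CER1 (−2.24), EOMES (−1.48), MIXL1 (−0.91), GSC (−1.52), GATA6 (−1.04), FOXA2 (−2.51), LHX1 (−2.13) and HHEX (−1.31) fell. GATA4 (−0.28) and SOX17 (−0.45) did not pass. FOXA2 rested on few UMIs, at 0.121 (A) and 0.139 CPM (B) in carriers. With 6 pools 5 genes of the list fell, and MIXL1 (−0.82), GATA6 (−1.05) and FOXA2 (−1.69) did not pass. Of 7 epithelial genes, EPCAM, CDH1, KRT8, KRT18, CLDN6 and ESRP1 rose by 0.65 to 1.14. Of 4 neuroectoderm genes, ZIC1 fell (−1.98) and 3 did not pass. One of these, NES, a marker of neural progenitors (0.34), was called higher with 6 pools (0.44) and in POU5F1 cells (0.44). Of 6 cell cycle genes, CCNB1 rose (0.42, and 0.19 without passing in POU5F1 cells alone), and MKI67, which marks dividing cells, differed by 0.10 (SE 0.08, adjusted p = 0.372). PRL, the pituitary relative of placental lactogen, was at 0.155 and 0.553 CPM and did not pass.

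**Figure D5:**
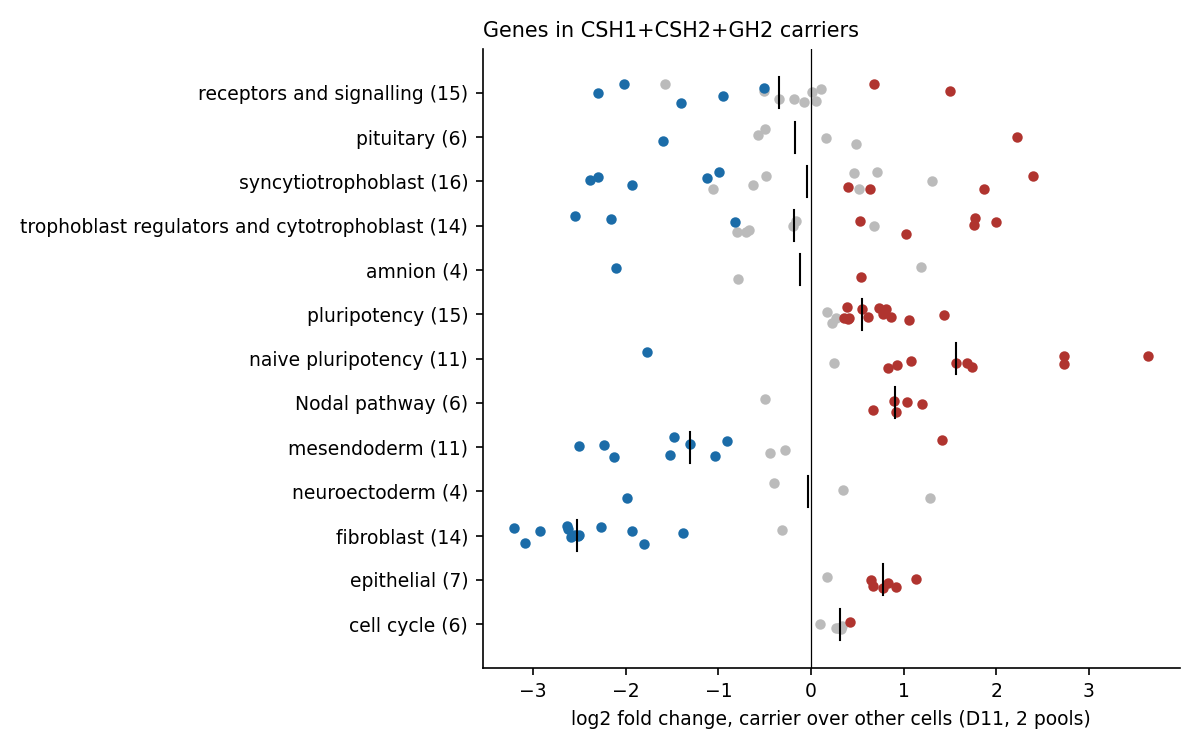
log2 fold change of each tested gene between carrier and other cells of D11 (horizontal axis), by list with the number of genes tested (vertical axis). Red points were called higher in carriers, blue points lower, grey points not called, and black lines mark the medians, which were lowest for fibroblast (−2.53) and highest for naive pluripotency genes (1.56).

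Beyond the cluster, genes of the same stretch of chromosome were compared. Of 11 other genes within 100 kb of it, 10 could be tested, 2 rose in carriers and 0 fell, with a median of 0.42. Over all genes tested, 8.80% rose and 11.4% fell, so this count says nothing particular to the stretch. CD79B, next to GH1 and on the same strand (63928738 to 63932336), codes for a subunit of the B cell receptor and was at 12.0 CPM in carriers and 5.71 in other cells (1.20, SE 0.13, adjusted p = 0.000292). SMARCD2, a subunit of the SWI/SNF chromatin remodeller (63832081 to 63843065), was at 35.6 and 21.8 CPM (0.84, SE 0.08, adjusted p = 0.000235). Both were called in POU5F1 cells alone and with 6 pools. SCN4A, a sodium channel gene (0.696 and 0.475 CPM), and ICAM2 (1.59 and 1.22) did not pass.

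The genes whose level over the 16 pools was most like that of the family sum were named as a description. By Pearson's r of log2(CPM + 1), they were ACTA1 (0.99), DPPA3 (0.99), MYL10 (0.99), CYP26A1 (0.98), which degrades retinoic acid, and MMP9 (0.98), a gelatinase. The pools share their days, so they are not 16 independent points. ACTA1 went from 105 CPM at D9 to 626 at D11, 183 at D13 and 63.4 at D15, and DPPA3 from 6.62 to 15.9, 7.41 and 3.58.

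Other genes were compared between the days on which the family rose and fell. Between D11 and D9, edgeR called 373 genes higher (2.92% of 12794 tested) and 150 lower (1.17%) on D11, and 67 to 199 genes in all when any 1 of the 4 pools was left out. Among 12 receptor and signalling genes tested, INSR rose by 1.84 on the log2 scale (SE 0.33, adjusted p = 0.00451) and SOCS2 fell by 1.45 (SE 0.27, adjusted p = 0.00498), the directions they also had in carriers. Of 8 syncytiotrophoblast genes tested, PSG5, a pregnancy-specific glycoprotein gene, rose by 1.97 (SE 0.38, adjusted p = 0.00645), whereas it was lower in carriers. Of 5 mesendoderm genes tested, 4 rose, CER1 by 7.06, LHX1 by 5.11, EOMES by 3.11 and MIXL1 by 2.13, and all 4 were lower in carriers. In the list of pluripotency genes, DNMT3B, DPPA2 and TERF1 rose, and in that of naive genes DPPA5 rose by 1.82 and SUSD2 fell by 1.83. Of the other lists, CDH1 (1.87) and COL6A3 (1.57) rose and ISL1 fell (−1.58).

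Between D15 and D11, when the family fell, 324 genes were higher (2.53%) and 791 lower (6.18%) on D15, and 174 to 431 in all without 1 of the pools. Of the naive genes, DPPA3 (−2.07), SUSD2 (−2.50) and TBX3 (−1.96) fell, of the trophoblast list TFAP2A (−2.83) and EGFR (−2.05), and of the syncytiotrophoblast list PSG5 (−2.92), KISS1 (−1.45) and ADAM12 (−1.38). Of 14 fibroblast genes, 12 fell, as did IGF1 (−2.11), BMP4 (−1.70), MEIS1 (−1.95), MIXL1 (−2.22) and ZIC1 (−2.29). The pluripotency genes DNMT3B (1.02) and TERF1 (1.37), which had risen between D9 and D11, rose further, and OTX2 rose by 2.31. INSR was at 1.06 and did not pass (adjusted p = 0.0373 from edgeR). Between D13 and D11, 6 genes were higher (0.0469%) and 9 lower (0.0703%), none of them in any of the lists, and 0 to 109 in all without 1 of the pools. The comparisons share the pools of D11.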

How the data were processed

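The authors counted UMIs per gene and cell barcode with Cell Ranger 2.2 (named in the submitters' processing notes) on hg38, and the deposited values are raw counts, not normalized. They hold the barcodes left by the filtering of its count pipeline, before the study's filters on genes per cell and mitochondrial share. The members and gene lists were chosen with earlier results of these data known. Aliquots were added to their pool. UMIs were summed per pool, or per pool and class, and tested with edgeR 4.0.16 (quasi-likelihood test, TMM, Benjamini-Hochberg) in R 4.3.3. Fits between days used 12794 genes found in at least 5% of cells, and the carrier fit used 17561 genes with a mean of at least 10 UMIs per sum. CPM values were not TMM-scaled, so that a fold change can differ from the ratio of the CPM. Pools held between 33181614 and 180056814 UMIs, and 3 counts correspond to 0.0167 to 0.0904 CPM. DESeq2 1.42.0 and the filters, thinnings, classes and left-out pools described at the end were alternatives. Other steps used pandas 2.3.3, scipy 1.17.1, numpy 2.4.6 and matplotlib 3.10.9 in Python 3.11.15. The fits were also run on simulated counts drawn without an effect of pool, an easier setting than these data. That run is no measure of how reliable the counts of genes called here are. The values of 2 listed genes are not reported here.

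Named genes were the members, GH1 and CSHL1, list genes, the 5 genes most correlated with the family sum, genes within 100 kb, and in carriers the 8 largest called rises and falls at 20 CPM or more moving the same way in both pools of that comparison, without mitochondrial and ribosomal protein genes. The pool letters did not pair days (correlation of pool deviations over 28 pairs of days from −0.41 to 0.81, median −0.03). Both classes of cells in the carrier fit came from the same pool, which was its block. Pools were separate collections of chips of 1 cell line, so p-values measure the spread between such pools.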

Additional observations from a re-analysis of the deposited data

Results flagged for a closer look

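Family UMIs also stood on barcodes that the cell filter removed, which the main comparisons did not use. The family sum there was 114 CPM on D9 (344 barcodes, 852 family UMIs), 245 CPM on D11 (346 barcodes, 1636 family UMIs), 115 CPM on D13 (418 barcodes, 1002 family UMIs) and 33.4 CPM on D15 (324 barcodes, 224 family UMIs). The removed barcodes of D0, D3 and D5 held 0. For comparison, the cells that were kept averaged 52.8, 219, 79.2 and 16.2 CPM on D9, D11, D13 and D15. With all deposited barcodes these means were 54.8, 219, 82.1 and 17.0 CPM. The difference was not tested.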

How the results depend on the processing

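The mean family sum was highest on D11 in each alternative that kept both pools of a day. On D9 (52.8 CPM) it was 45.6 without the 5% of cells with most UMIs, 44.2 as the mean of the per-cell CPM, 46.9 without the cell with most family UMIs, and 133, 46.1, 85.6 and 21.4 in the single aliquots. On D11 (219 CPM) it was 195 without these 5% of cells, 210 with TMM-scaled library sizes, 175 as the per-cell mean, and 128 and 234 in the aliquots of pool B. Leaving out a pool gave 50.1 to 55.6 on D9, 218 to 219 on D11, 41.8 to 117 on D13 and 11.4 to 21.1 on D15. The share of cells with a family UMI was, for D9, D11, D13 and D15, 34.0%, 69.6%, 36.2% and 17.7% without thinning and 2.57%, 10.3%, 3.08% and 0.920% with at least 2 UMIs. At 2000 UMIs it was 3.93%, 13.9%, 5.37% and 1.79% and at 10000 UMIs 12.3%, 36.8%, 14.7% and 6.80%. Leaving out a pool gave 6.66% to 9.44%, 16.1% to 33.9%, 9.30% to 9.46% and 2.63% to 4.93%.

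Between D11 and D9 (523 genes called) the count was 1225 at an adjusted p below 0.05 with no fold limit, 1198 with DESeq2, 1470 without the gene filter and 1067 with only the pools of both days, and 67 to 199 without 1 pool. Between D13 and D11 (15) it was 319, 473, 344 and 0 (966 at an unadjusted p below 0.05), 25 with DESeq2's size factors in edgeR, and 0 to 109 without 1 pool. Between D15 and D11 (1115) it was 2372, 2075, 2417 and 2245, and 174 to 431 without 1 pool. With the pool letter as a replicate block, which pairs nothing by design, the counts were 581, 15 and 1194. For the carriers (3546) it was 0 without the replicate block, 2038 with carriers of at least 1 family UMI, 1402 with cells thinned to 5000 UMIs before summing, 2293 in POU5F1 cells, 1970 in POU5F1 cells with 6 pools, and 2086 to 3587 when 1 of 6 pools was left out, lowest without pool B of D11. DESeq2 called 1454 higher and 1241 lower, a larger part higher than in the main comparison. Carriers of at least 10 UMIs could not be fitted, since 1 pool had enough of them, and leaving out a pool of D11 from the 2-pool fit leaves no residual spread. D11 pools alone are the main fit of carriers. The cause of these shifts was not tested. POU5F1 cells stayed above collagen cells under all alternatives run, by 2.43 to 3.63.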
